A study of Mus musculus with 13 samples.

Results

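Stratified epithelium, the layered tissue of epidermis, hair follicle and the outer layer of glandular ducts, was followed in gluteal white adipose tissue (WAT) through 10 genes, which were chosen by symbol and found as 10 of the 34419 genes counted. They were *Krt5*, *Krt14*, *Krt15*, *Krt17*, *Trp63* and *Dsg3* of the basal and follicular layers, and *Krt1*, *Krt10*, *Sbsn* and *Sfn* of the cornifying layers. Bulk RNA-seq was available from male C57BL/6J mice reared from birth to an age of 13 weeks in cages at 22°C (n = 7) or at 29°C (n = 6). In both groups the hair of the posterior was removed after weaning, the mice were housed singly with little bedding, and no mouse that kept its hair was analysed here. Each library is taken as 1 mouse, as the labels number them.

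In stratified epithelium, proliferating basal cells rest on the basement membrane and contain filaments of the keratin pair *Krt5* and *Krt14* under the control of the transcription factor *Trp63*. Cells that leave this layer in the epidermis switch to the pair *Krt1* and *Krt10* and then build a cornified envelope. The hair follicle carries its own keratins, and in mammary or other glandular ducts a basal layer with *Krt5* and *Krt14* surrounds luminal cells with *Krt8* and *Krt18*, which lack *Krt1* and *Krt10*.

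The sequences before the start of *Krt5*, *Krt14* and *Krt10* are shown because *Krt5* and *Krt14* were correlated between mice. The relation of *Krt14* to *Krt10* was weaker and fell further without 2 of the mice. Each is the 250 bases that precede the gene start in RefSeq, build GRCm38.p6, written 5′ to 3′ on the gene's own strand. All 3 genes lie on the minus strand, at chr15:101712906-101713155 (*Krt5*), chr11:100206031-100206280 (*Krt14*) and chr11:99389365-99389614 (*Krt10*).
Krt5: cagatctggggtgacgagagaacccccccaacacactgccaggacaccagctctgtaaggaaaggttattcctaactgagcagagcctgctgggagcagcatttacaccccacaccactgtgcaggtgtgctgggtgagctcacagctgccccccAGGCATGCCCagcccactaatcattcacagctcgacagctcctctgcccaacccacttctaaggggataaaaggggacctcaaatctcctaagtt
Krt14: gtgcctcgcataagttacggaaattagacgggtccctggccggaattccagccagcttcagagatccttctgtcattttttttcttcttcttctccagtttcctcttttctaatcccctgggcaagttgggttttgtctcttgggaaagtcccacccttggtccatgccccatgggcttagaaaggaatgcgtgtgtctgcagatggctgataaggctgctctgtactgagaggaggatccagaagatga
Krt10: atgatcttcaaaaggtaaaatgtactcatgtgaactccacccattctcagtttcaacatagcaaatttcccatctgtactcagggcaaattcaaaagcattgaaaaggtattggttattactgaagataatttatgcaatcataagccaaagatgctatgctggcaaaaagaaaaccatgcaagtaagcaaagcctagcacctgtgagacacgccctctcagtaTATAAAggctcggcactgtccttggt
Capitals mark matches, on either strand, to a motif of 10 bases for the p53 family, to which *Trp63* belongs (*Krt5*), and to the TATA box TATAAA (*Krt10*). The p53-family motif lay 95 to 86 bases before the start of *Krt5* and is present in 7.13% of 32851 windows of the same length, and the TATA box lay 26 to 21 bases before the start of *Krt10* and is present in 12.4% of them. The AP-1 motif TGANTCA and the AP-2 motif GCCNNNGGC, present in 6.75% and 13.7% of windows, had no match in these 3 windows. None of the 4 motifs shared bases with another match here. Promoters were at hand for 5 of the 10 genes. *Sbsn* and *Sfn* were the others, of which *Sbsn* had an AP-1 match and *Sfn* none.

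Total counts were between 22356637 and 25245785 per library, so that 3 counts, the limit that a count of 0 allows for counting error, stood at 0.113 to 0.158 CPM (counts scaled to the effective size of the library). White adipocyte genes, including *Cfd*, *Lpl* and *Fabp4*, summed to between 26536 and 41182 CPM in all 13 libraries, as the tissue label says. Skeletal muscle genes (*Acta1*, *Myh4*, *Atp2a1*) were also present, at 663 to 70678 summed CPM at 22°C and 85.6 to 5631 at 29°C. Totals fell into a lower cluster of 5 libraries, all at 22°C (replicates 1 to 5), and a higher cluster of 8 that held 22°C replicates 6 and 7 and all 6 libraries at 29°C. 29°C replicate 4 stood apart for the epithelial genes, with the highest CPM of 9 of the 10 genes, and results that rest on it are given with and without it.

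*Krt5*, the type II keratin of basal cells, ranged from 0 to 3764 counts per library. At 22°C its lowest, median and highest values were 0, 1.09 and 25.9 CPM, and at 29°C they were 0, 0.50 and 142 CPM. The groups overlapped over the whole 22°C range. 22°C replicates 4, 5 and 6 (12.6, 25.9 and 11.0 CPM) and 29°C replicates 4 and 5 (142 and 28.8 CPM) were high, whereas 22°C replicates 1, 2 and 7 and 29°C replicate 6 had at most 1 count.

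*Krt14*, its type I partner, was high in the same 5 libraries. At 22°C the lowest, median and highest values were 0.127, 0.453 and 8.90 CPM, and at 29°C they were 0, 1.95 and 77.3 CPM. 29°C replicate 4 alone held 72.2% of the *Krt14* CPM summed over all mice and 63.8% of that of *Krt5*. 29°C replicate 2 was the exception to the shared order, with 91 counts of *Krt14* against 12 of *Krt5*. Over the 13 mice, log2 CPM of *Krt5* and *Krt14* correlated with Pearson's r = 0.916 (permutation P = 5e-05, P-adj = 0.000125 over 5 relations) and Spearman's rho = 0.840 (permutation P = 0.00052, P-adj = 0.0013). The relation kept r = 0.861 without the 2 mice farthest from the median of *Krt5* (29°C replicates 4 and 5), r = 0.970 within 22°C, r = 0.899 within 29°C and r = 0.912 within the libraries with higher totals.

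*Krt17*, a keratin of the outer root sheath and of stressed epidermis, and *Krt15*, a keratin of basal and follicle bulge cells, were also highest in 29°C replicates 4 and 5 and 22°C replicate 5, and their relation to *Krt5* was not tested. *Krt17* had a lowest, median and highest value of 0, 1.12 and 30.2 CPM at 22°C and of 0, 1.37 and 144 CPM at 29°C. *Krt15* had 0, 0 and 3.90 CPM at 22°C and 0, 0.174 and 11.6 CPM at 29°C, and was over 3 counts in 6 libraries. In 22°C replicate 6 *Krt17* was low (1.12 CPM) beside *Krt5* (11.0 CPM), whereas in 29°C replicate 3 it had 63 counts beside 3 of *Krt5*, and in 22°C replicate 3 it had 34 beside 24. *Krt14* and *Krt17* are close paralogs whose reads the counting could have divided between them, so their separate levels are uncertain.

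*Dsg3*, the desmosomal cadherin of the lower layers, reached 2.50 CPM at 22°C (lowest 0, median 0.227) and 10.5 CPM at 29°C (lowest 0, median 0.174), and was over 3 counts in 7 libraries. The highest value in each group was again in 22°C replicate 5 and 29°C replicate 4, and the groups overlapped. *Sfn*, a 14-3-3 protein of differentiating keratinocytes, was over 3 counts in all 13 mice but rose and fell with the basal keratins: its lowest, median and highest values were 2.76, 3.90 and 42.3 CPM at 22°C and 1.77, 2.64 and 70.1 CPM at 29°C. *Sfn* was at 17.1 CPM or more in 22°C replicates 4 and 5 and 29°C replicates 4 and 5, at 7.70 CPM in 22°C replicate 6 and at 3.90 CPM or less in the other 8 libraries.

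**Figure D1:**
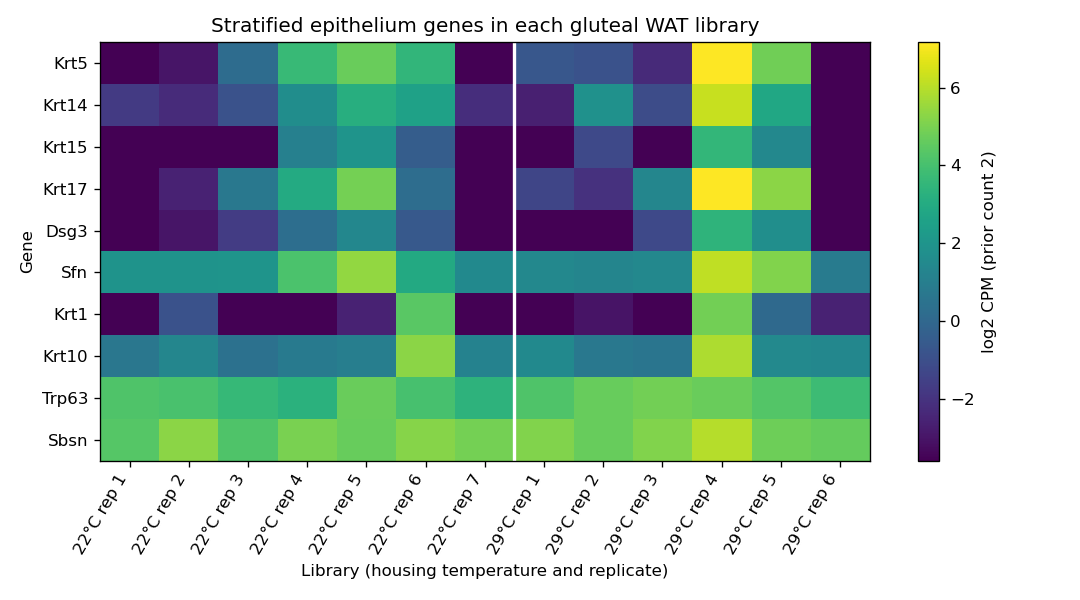
Level of the 10 genes (rows) in each library (columns), as log2 CPM with a prior count of 2; the white line parts the 7 mice at 22°C from the 6 at 29°C. Krt5, Krt15, Krt17, Dsg3 and Sfn are brightest in 22°C replicates 4 and 5 and 29°C replicates 4 and 5, Krt14 in 22°C replicates 5 and 6 and 29°C replicates 4 and 5, Krt1 and Krt10 in 22°C replicate 6 and 29°C replicate 4, and Trp63 and Sbsn differ little between libraries.

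The cornifying keratins were high in 2 libraries. *Krt10*, the type I keratin of suprabasal epidermis, stood at 39.7 CPM in 22°C replicate 6 and 58.0 CPM in 29°C replicate 4, which together held 81.6% of its summed CPM. Its lowest and median values were 1.27 and 1.95 CPM at 22°C and 1.43 and 2.63 CPM at 29°C, so it was counted in all mice. *Krt1*, its type II partner, had 549 and 786 counts in the same 2 libraries and at most 25 in the others, and these libraries held 96.8% of its summed CPM. The lowest and median values of *Krt1* were 0 and 0 CPM at 22°C and 0 and 0.061 CPM at 29°C.

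Because the mice fell into separate clusters for *Krt1*, the relation of *Krt1* to *Krt10* was tested over the other 11 mice. There r was 0.578 (permutation P = 0.0572, P-adj = 0.0715) and rho 0.491 (permutation P = 0.128, P-adj = 0.213). Of these mice, 22°C replicate 2 and 29°C replicate 5 had 11 and 25 counts of *Krt1*, and the others had at most 2. Without these 2 mice, r was 0.350 (n = 9, permutation P = 0.361), so the value over 11 mice rested largely on them. Over all 13 mice, *Krt14* and *Krt10* had r = 0.596 (permutation P = 0.0326, P-adj = 0.0543) and rho = 0.148 (permutation P = 0.629, P-adj = 0.735). Without 22°C replicate 5 and 29°C replicate 4, the 2 mice farthest from the median of *Krt14*, r was 0.369 (permutation P = 0.298). In 22°C replicate 5, *Krt14* was high (8.90 CPM) without a high *Krt10* (1.95 CPM), so that mouse did not carry the relation. 22°C replicate 6, with 39.7 CPM of *Krt10*, was kept in that fit. *Krt10* reads could include those of the antisense gene *Gm11940*, which shares exon bases with it and had 1 to 350 counts, because the strand setting of the counting was not stated.

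Basal and cornifying members were set against each other within each mouse. The log2 ratio of *Krt5*, *Krt14* and *Trp63* to *Krt1* and *Krt10* counts was -0.86 to 4.85 at 22°C (median 3.35) and 1.48 to 4.31 at 29°C (median 3.30), and it was below 0 in 22°C replicate 6 alone. *Trp63* made up most of the numerator in the mice without keratin. For *Krt5* and *Krt14* without *Trp63*, the ratio was -3.56 to 4.04 at 22°C (median -1.84) and -5.02 to 3.25 at 29°C (median -0.06). It was highest in 22°C replicates 4 and 5 (3.16 and 4.04) and in 29°C replicate 5 (3.25), where basal keratins were present and *Krt1* was at 25 counts or less. The ratio was -1.84 in 22°C replicate 6 and 1.32 in 29°C replicate 4, the 2 libraries with the cornifying pair.

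**Figure D2:**
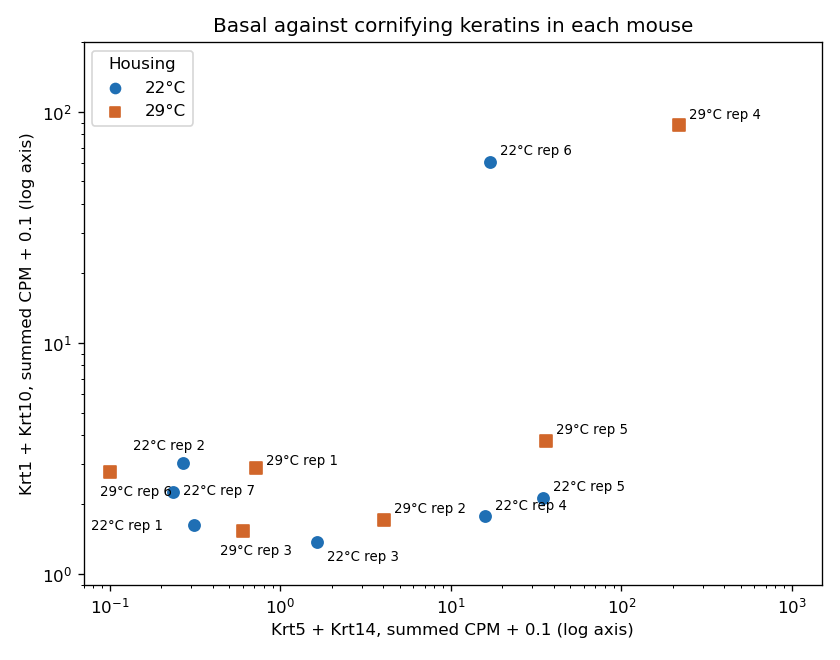
Summed CPM of Krt5 and Krt14 (x) against summed CPM of Krt1 and Krt10 (y) in each mouse, both on log axes after adding 0.1; circles are mice at 22°C and squares mice at 29°C. 22°C replicate 6 and 29°C replicate 4 lie at the top, and 22°C replicates 4 and 5 and 29°C replicate 5 lie at the lower right, with basal keratins and little Krt1 or Krt10.

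*Trp63* and *Sbsn* varied far less between mice than the keratins. *Trp63*, the transcription factor that specifies stratified epithelium, had 225 to 402 counts in the 4 libraries in which *Krt5* had at most 1 count, and 227 to 683 in the 5 libraries in which all 6 basal genes were over 3 counts. Its lowest, median and highest values were 9.52, 16.5 and 26.2 CPM at 22°C and 13.6, 22.1 and 29.4 CPM at 29°C, a spread of 3.09 between the lowest and the highest mouse. The gene count does not separate the isoforms of *Trp63*. *Sbsn*, which encodes suprabasin, had 18.6, 30.4 and 38.9 CPM at 22°C and 24.8, 31.3 and 62.4 CPM at 29°C, a spread of 3.36. *Sbsn* shares exon bases on the same strand with *Tmem147os*, which had 160 to 330 counts, so its count could include reads of that gene. *Trp63* and *Sbsn* were thus present at similar levels in mice with and without *Krt5* and *Krt14*, so the level of neither marked the mice that had these keratins. *Krt10* and *Sfn* likewise did not fall to 0 in any mouse, with at least 28 and 42 counts.

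Per kilobase of exon, the order of the genes depended on the mouse. In 29°C replicate 4 it ran from *Krt17* (92.6 CPM per kb), *Krt5* (64.4), *Krt14* (43.9) and *Sfn* (43.5) through *Krt10* (27.4), *Sbsn* (17.2), *Krt1* (6.70) and *Krt15* (6.56) to *Trp63* (3.06) and *Dsg3* (1.5). In 22°C replicate 1, a library without basal keratins, it ran from *Sbsn* (5.54 CPM per kb) through *Sfn* (2.29), *Trp63* (2.20) and *Krt10* (0.723) to *Krt14* (0.120), with the other 5 genes at 0. These are levels in individual libraries, without a replicate.

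Whether the cool environment changed these genes was asked with edgeR's quasi-likelihood test over the whole table. Of the 10 genes, 7 passed the filter on low counts, and 0 of the 7 were called at P-adj below 0.1, against 1.94% of the 17779 genes tested (345 genes; 0.731% were called higher and 1.21% lower at 22°C). No member had an unadjusted P below 0.05, a limit that 18.5% of all genes tested passed. DESeq2 also called 0 members, with 1 below that unadjusted limit. It gave no adjusted P for *Krt14* and *Krt10*, so it could not call them. All 7 log2 fold changes (22°C relative to 29°C) were below 0, as were 48.4% of all genes tested, with a median of -0.71 beside 0.0074 for all genes. The CPM of the groups overlapped for all 10 members, whereas they did not overlap for 1.24% of genes tested. In bulk tissue, fewer cells of a type cannot be told apart from less RNA per cell.

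The largest fold changes were those of the basal keratins, and so were their errors. *Krt14* had a log2 fold change of -2.44 ± 1.43 (SE; edgeR P-adj = 0.382), *Krt17* of -2.41 ± 1.64 (edgeR P-adj = 0.458) and *Krt5* of -1.98 ± 1.63 (edgeR P-adj = 0.555). *Sfn* had -0.71 ± 0.97 (edgeR P-adj = 0.738) and *Krt10* -0.66 ± 1.12 (edgeR P-adj = 0.794). Without 29°C replicate 4 these values became 0.30 for *Krt14*, -0.55 for *Krt17*, 0.28 for *Krt5*, 0.40 for *Sfn* and 1.72 for *Krt10*, so that 4 of the 5 changed sign on leaving out that mouse. Without 22°C replicate 6, *Krt10* moved to -2.64 (edgeR P-adj = 0.151).

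The biological coefficient of variation, the spread between mice of 1 group beyond counting error, was 2.17 for *Krt5*, 2.13 for *Krt17*, 1.68 for *Krt14*, 1.26 for *Krt10* and 1.11 for *Sfn*. The median over all genes tested was 0.192 and the 95th percentile 0.588, which placed these 5 genes between the 98.2 and 99.8 percentiles. *Trp63* (0.316) and *Sbsn* (0.305) lay at the 82.5 and 81.0 percentiles.

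*Trp63* had the smallest P of the 10 genes. Its log2 fold change was -0.48 ± 0.24 (edgeR unadjusted P = 0.0674, P-adj = 0.309), with a mean of 15.7 ± 5.78 CPM (SD, n = 7) in the cooler and 21.9 ± 5.83 CPM (SD, n = 6) in the warmer group. The fold change stayed below 0 on leaving out each mouse in turn, between -0.65 and -0.37, and was -0.72 (edgeR P-adj = 0.376) among the 8 libraries with higher totals. *Sbsn* had -0.28 ± 0.23 (edgeR P-adj = 0.563), with means of 28.9 ± 7.81 and 35.0 ± 14.1 CPM (SD) in the cooler and the warmer group, and -0.03 without 29°C replicate 4. Neither difference passed the test.

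*Krt15*, *Krt1* and *Dsg3* were too low for the filter. Their mean log2 CPM at 22°C less that at 29°C was -0.50 for *Krt15* (two-sided exact permutation P = 0.784 over 1716 splits, unadjusted), -0.61 for *Krt1* (exact permutation P = 0.654) and -0.40 for *Dsg3* (exact permutation P = 0.773). Without 29°C replicate 4 the differences were 0.44, 0.63 and 0.51.

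**Figure D3:**
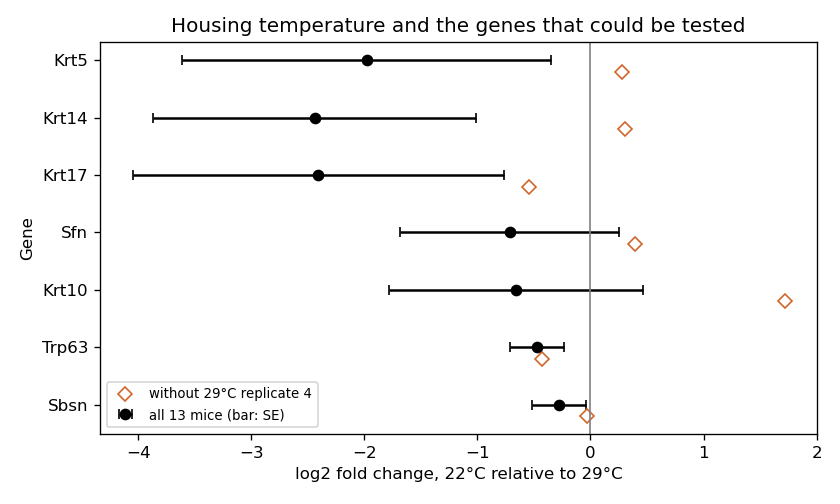
Log2 fold change of 22°C relative to 29°C (x) for the 7 genes that passed the filter; filled circles are the fit of all 13 mice with bars of 1 SE, and open diamonds the fit without 29°C replicate 4. Krt5, Krt14, Sfn and Krt10 cross 0 without that mouse, while Trp63 stays near -0.48.

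**Figure D4:**
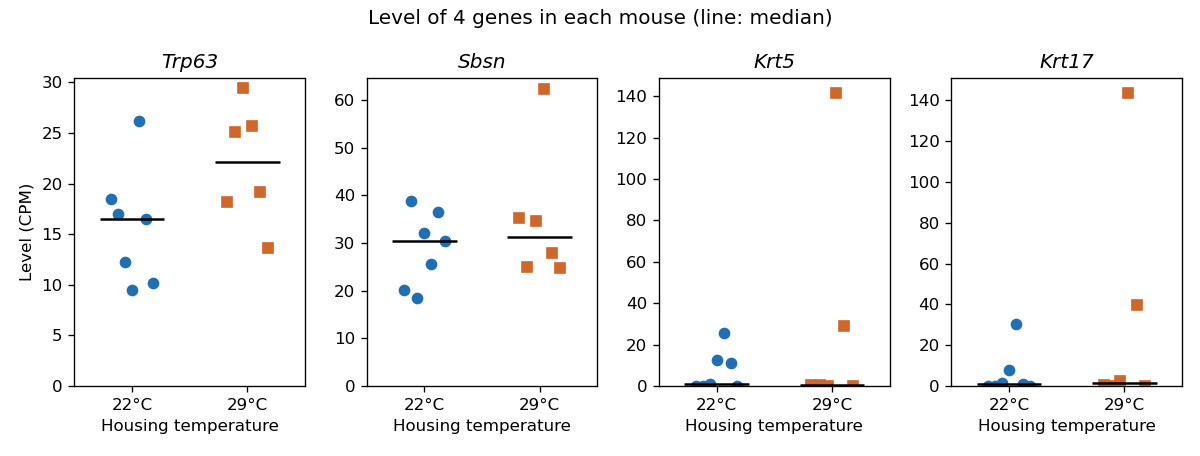
CPM of Trp63, Sbsn, Krt5 and Krt17 in each mouse by housing temperature, on linear axes from 0 with the group median as a line. Trp63 sits in a band in both groups, as does Sbsn apart from 29°C replicate 4 (62.4 CPM). Krt5 and Krt17 are near 0 in most mice and reach 142 and 144 CPM in that mouse.

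Hair follicle genes were abundant in the libraries that had basal keratins. *Tchh*, the trichohyalin of the inner root sheath, had 6628, 9593 and 769 counts in 22°C replicates 4, 5 and 6 and 38708 and 20247 in 29°C replicates 4 and 5, against 3 to 331 in the other 8 libraries. *Krt71* and *Krt25*, keratins of the inner root sheath, had 25811 and 10684 counts in 29°C replicate 4. All 22 follicle genes in the table were over 3 counts in the 5 libraries in which all 6 basal genes were, and 2 to 21 of them in the other 8. Their summed CPM in 29°C replicate 4 was 4448, or 0.470% of its counts, and in 22°C replicate 6 it was 150. Of the 17 that passed the filter 17 were lower and 0 were called, with a median log2 fold change of -1.32, or -0.15 without 29°C replicate 4.

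Desmosome genes other than *Dsg3* behaved in both ways. *Dsp*, desmoplakin, had at most 4 counts in the 4 libraries with at most 1 count of *Krt5* and 401 to 4313 in the 5 with all basal genes. *Jup*, plakoglobin, which adherens junctions also contain, was counted in all mice (3083 to 8908 counts; log2 fold change -0.50 ± 0.13, edgeR P-adj = 0.10), and *Ppl*, periplakin, had 286 to 1765. Of the 7 tested desmosome genes of the list 7 were lower and 0 were called, with a median of -1.01, or 0.05 without 29°C replicate 4. *Pkp2*, a desmosomal plakophilin that the list did not hold, was picked after its values were seen, so its call is not a result of the list. It was lower at 22°C (log2 fold change -0.64 ± 0.12, edgeR P-adj = 0.0463), with a mean of 37.0 CPM against 57.6. That call was lost without 29°C replicate 2 or 3 (edgeR P-adj = 0.101 and 0.121) and with the cluster of totals as a covariate (-0.67, edgeR P-adj = 0.237). The hemidesmosome genes, which anchor basal cells, were led by *Dst*, *Plec* and *Itga6* and had 2 higher, 6 lower and 0 called of 8 tested (median -0.15). They were over 3 counts in all libraries, also those without *Krt5*, so their presence did not mark the mice with basal keratins. *Plec* was highest in 22°C replicates 1 and 7 (438.5 and 426 CPM), where skeletal muscle genes summed highest (51665 and 70678 CPM). *Col17a1*, picked after its values were seen, had 484 counts in 29°C replicate 4 and 8 to 83 elsewhere.

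The late cornified envelope genes differed in the libraries in which they were high. *Cdsn*, *Krt80* (173 to 1751 counts) and *Dmkn* (56 to 1150), among the most abundant, were counted in all mice. *Sprr1a*, a crosslinked envelope precursor, had 504 and 1207 counts in 22°C replicates 4 and 5 and 4415 and 1481 in 29°C replicates 4 and 5. *Lor* (loricrin), which like *Krt77*, *Flg* and *Flg2* was picked after its values were seen, had 17.95 CPM in 22°C replicate 6 and 25.3 in 29°C replicate 4 and at most 0.845 elsewhere, and *Krt77*, a suprabasal keratin, had 595 and 1142 counts in these libraries and at most 19 elsewhere. The filaggrin genes *Flg* (97 and 67 counts) and *Flg2* (92 and 171) were at 5 counts or less in the other mice. Other cornifying genes did not all share this. *Krt2* had 3 counts in 22°C replicate 6 and 0 in 29°C replicate 4. *Krtdap* had 214 and 287 counts in these 2 libraries but also 20 to 131 in the others. The stress keratins *Krt6a* and *Krt16* reached 807 and 100 counts in 29°C replicate 4, and *Krt6b* 5.

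Of the 31 envelope genes 13 were tested, 1 was higher and 12 lower, and 1 was called (*Cdsn*), with a median of -0.69, or 0.27 without 29°C replicate 4. Over all 13 lists other than the members, 2 of 90 tested genes were called, beside 1.94% of all genes tested. *Cdsn*, corneodesmosin of the outermost epidermis, ranged from 67.4 to 163 CPM at 22°C (median 103) and from 145 to 228 CPM at 29°C (median 180), and the groups overlapped. It was lower at 22°C by edgeR (log2 fold change -0.79 ± 0.17, P-adj = 0.0714). The call held on leaving out 6 of the 13 mice in turn and was lost without 22°C replicate 1 or 7 or any of 29°C replicates 2 to 6 (edgeR P-adj between 0.0272 and 0.166 over the 13 fits), and it was also lost with the cluster of totals as a covariate (log2 fold change -0.95, edgeR P-adj = 0.238). Unlike *Lor*, *Cdsn* had at least 1607 counts in each library, including those without *Krt5*.

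Luminal genes were examined because a glandular duct would carry them beside the basal keratins. *Krt8* and *Krt18*, the keratin pair of luminal cells, had 201 and 171 counts in 22°C replicate 4 and 30 and 42 in 29°C replicate 1, and *Krt7* and *Krt19* had 604 and 489 in 22°C replicate 4. In 22°C replicate 5, in which *Krt5* was at 610 counts, *Krt8* was at 0 and *Krt18* at 2. In 29°C replicate 4, with 3764 counts of *Krt5*, *Krt8* was at 11 and *Krt18* at 24. *Krt14* and *Krt8* had r = 0.077 (permutation P = 0.807, P-adj = 0.807) and rho = -0.105 (permutation P = 0.735, P-adj = 0.735) over 13 mice, which does not show that they were unrelated.

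*Epcam*, an adhesion molecule shared by simple epithelia and follicle cells, did follow *Krt5*, with r = 0.922 (permutation P = 2e-05, P-adj = 0.0001) and rho = 0.946 (permutation P = 1e-05, the smallest that the resampling could give, P-adj = 5e-05). The relation had r = 0.861 without 29°C replicates 4 and 5, 0.937 within 22°C, 0.959 within 29°C and 0.931 within the libraries with higher totals. *Epcam* was low, with at most 2 counts in 22°C replicates 1, 2, 3 and 7 and 29°C replicates 3 and 6. It had 7 to 194 counts in the others, and at 22°C only 16, 45 and 13 in replicates 4, 5 and 6. The relation therefore rests largely on mice with both genes against mice with few counts of either, and ranks among the latter are uncertain. Of the 15 luminal genes 9 were tested, 3 were higher, 6 lower and 0 called (median -0.54, or 0.48 without 29°C replicate 4), and their most abundant members were *Spint2*, *Cdh1* and *Esrp1*. Milk protein genes were low: *Ltf* (at most 98 counts, 29°C replicate 3), *Muc15* (at most 116, 29°C replicate 4) and *Wfdc18* (at most 20) led the list, whose sum was at most 4.85 CPM in any mouse, and none passed the filter. *Csn3* was at most at 12 counts (29°C replicate 1).

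**Figure D5:**
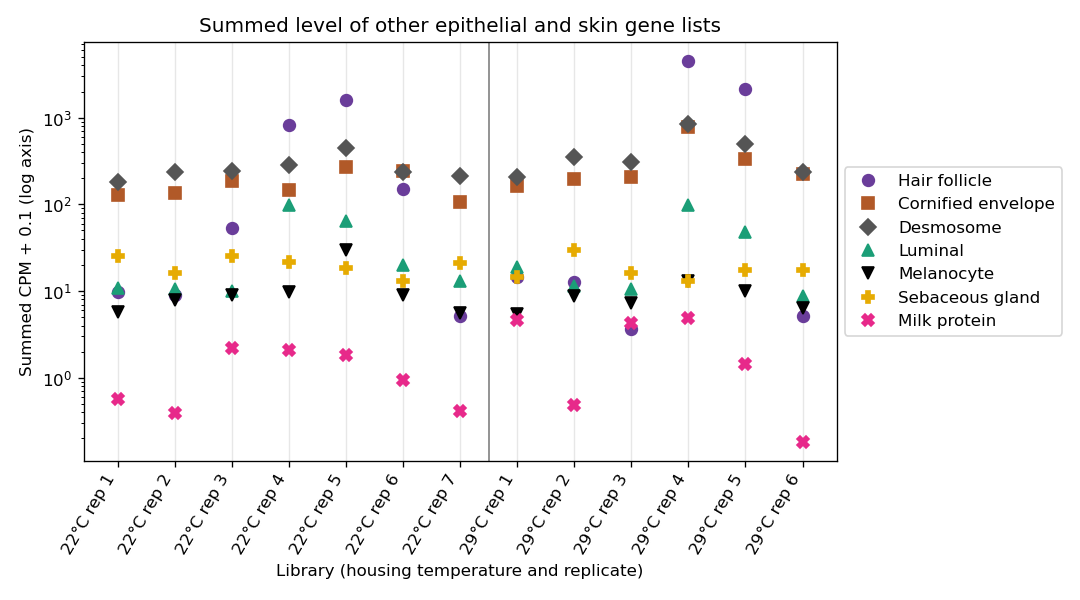
Summed CPM of 7 gene lists in each library, on a log axis after adding 0.1; the line parts 22°C from 29°C. Hair follicle genes span from 3.52 to 4448 CPM and peak in 22°C replicates 4 and 5 and 29°C replicates 4 and 5, luminal genes peak in 22°C replicate 4 and 29°C replicate 4 (97.0 and 97.4 CPM), and milk protein genes stay at 4.85 CPM or less. The 2 luminal peaks are of different genes. Krt7 and Krt19 were highest in 22°C replicate 4 (604 and 489 counts, against 6 and 24 in 29°C replicate 4). Esrp1 and Cdh1 had the most luminal counts in 29°C replicate 4 (444 and 443, against 77 and 68 in 22°C replicate 4).

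The sums of melanocyte and of sebaceous gland genes were highest in different libraries. Melanocyte genes (*Pmel*, *Dct*, *Mlana*) summed to 29.5 CPM in 22°C replicate 5 and to 5.34 to 12.9 CPM in the other 12, and their 3 tested genes were higher at 22°C with 0 called. The next highest sums were in 29°C replicates 4 and 5 and 22°C replicate 4 (12.9, 9.94 and 9.57 CPM). *Tyrp1* and *Tyr* of that list had 145 and 35 counts in 22°C replicate 5, and 44 and 7 in 29°C replicate 4. They had 24 and 8 in 29°C replicate 5 and at most 10 and 4 elsewhere. The sum of sebaceous gland genes was highest in 29°C replicate 2 (29.6 CPM), the library with 91 counts of *Krt14* against 12 of *Krt5*, with 2 higher, 2 lower and 0 called of 4 tested. *Awat2* (11.9 CPM) and *Fa2h* (6.44 CPM) were highest in that library, whereas *Scd3* was highest in 22°C replicate 3 (17.4 CPM) and *Mc5r* in 29°C replicate 1 (7.68 CPM). Myoepithelial genes, which smooth muscle shares (*Acta2*, *Mylk*, *Tagln*), had 3 higher, 3 lower and 0 called of 6 tested. Epithelial transcription factors (*Grhl1*, *Ovol1*, *Zfp750*) had 2 higher, 5 lower and 0 called of 7 tested. Their sum was highest in 29°C replicates 4 and 5 (112 and 50.9 CPM) and 22°C replicates 5 and 4 (73.7 and 31.3 CPM), and at most 22.3 CPM elsewhere. The 8 skeletal muscle genes were all higher with 0 called, and their sum was 1879 CPM in 29°C replicate 4. Of the 8 adipocyte genes 2 were higher and 6 lower, and 1 was called, *Lep* (leptin, log2 fold change -0.78 ± 0.15, edgeR P-adj = 0.0564). That call was lost without 29°C replicate 1 or 2 (edgeR P-adj = 0.104 and 0.124) and with the cluster of totals as a covariate (-0.88, edgeR P-adj = 0.237). *Cdsn* and *Lep* were the 2 calls among the 90 tested genes of these lists, beside 1.94% of all genes tested. The part of skin or follicle carried with the tissue in the level of the 10 genes was not tested.

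Among the genes outside all lists that were most like the mean log2 CPM of *Krt5*, *Krt14* and *Trp63* over the 13 libraries were *S100a14* and *Crybg2* (r = 0.974 each), *Gsdma* (0.966) and *Gjb2* (0.965). They were picked for this likeness, so the r values are a description. *Gjb2*, which encodes the gap junction protein connexin 26, was at a lowest, median and highest value of 0, 0.770 and 66.7 CPM over all mice. These 4 genes were highest in 29°C replicate 4, and none was called between temperatures (edgeR P-adj = 0.563 to 0.761).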

How the data were processed

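RNA of gluteal WAT from 7 mice at 22°C and 6 at 29°C was grouped by the temperature and replicate number in the labels. Per the labels, the reads were aligned with STAR 2.7.5a to GRCm39 and counted with featureCounts. The authors deposited raw counts per gene and regularized log2 values from DESeq2. The annotation and strand setting are not given in the sources used here. Symbols were taken by gene identifier without its version (34006 of 34419 matched), exon lengths from an annotation of GRCm38, and no coordinates of the counted genes are given. Promoters are from RefSeq on GRCm38.p6.

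Counts were compared with edgeR 4.0.16 in R 4.3.3: TMM normalization, filterByExpr, the quasi-likelihood F test and Benjamini-Hochberg adjustment over all genes tested, with P-adj below 0.1 called. Standard errors were derived from the log2 fold change and its F statistic. CPM were computed on library sizes after TMM, log2 CPM with a prior count of 2, and limits at 3 counts cover counting error only. Members that did not pass the filter were compared by exact permutation. Ratios within a mouse used summed counts with a prior count of 2. Correlations used 100000 resamples, or all orders within small groups, with Benjamini-Hochberg adjustment over 5 relations. P-values set a difference or relation against the spread between these libraries. Scripts were tested on simulated data. Over the 78 pairs of libraries, none agreed within sampling noise.

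DESeq2 1.42.0 and limma 3.58.1 on the authors' log2 values, other filters and scalings, totals, a replicate block and leaving out each mouse were alternatives. Leaving out 22°C replicate 6 with 29°C replicate 4, the ratio per kilobase and the rule for clustered mice were added after seeing the data. The members and lists were chosen with earlier results of these data known. The text names the 10 members, the 3 most abundant genes and any called gene of each other list, and the 5 genes most like the mean of *Krt5*, *Krt14* and *Trp63*, of which 1 is not reported here. *Krt8* and *Epcam* belong to the relations tested, and *Gm11940* and *Tmem147os* overlap members. *Lor*, *Krt77*, *Flg*, *Flg2*, *Krt2*, *Krtdap*, *Krt7*, *Krt18*, *Krt19*, *Csn3*, *Awat2*, *Dmkn*, *Tyrp1*, *Tyr*, *Col17a1* and *Pkp2* were chosen after their values were seen. *Krt85* and *Csn1s1* of the lists were not analysed here.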

Additional observations from a re-analysis of the deposited data

Results flagged for a closer look

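Within each temperature, the library with the highest or lowest value was compared with the next. It was set apart where the gap exceeded the 95% critical share of the group's range (0.568 for 7 mice, 0.625 for 6). The values were CPM of each member, summed CPM of each other list, and the log2 ratio of basal to cornifying genes with and without *Trp63*. Of 50 groups of values 19 were set apart. Chance gives about 1 in 20 only for normally distributed values. Apart from the ratios, which were not set apart in any mouse, the rule was applied to CPM without a log. Many of these genes were low in most mice and high in a few. The 19 of 50 therefore cannot be set against that rate, and serve as a description. The members and lists also vary together between mice, so the groups are not independent.

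29°C replicate 4 accounted for 10. It stood above the other 5 mice at 29°C for *Krt5* (142 CPM), *Krt14* (77.3), *Krt15* (11.6), *Krt17* (144), *Krt1* (29.6), *Krt10* (58.0), *Dsg3* (10.5) and *Sbsn* (62.4), and for the sums of cornified envelope genes (789) and stress keratins (34.3).

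22°C replicate 6 stood apart for *Krt1* (21.1 CPM) and *Krt10* (39.7). The gap was thus seen for the cornifying pair in this mouse and for the basal and cornifying pairs in 29°C replicate 4. 22°C replicate 5 stood apart for *Krt17* (30.2 CPM), *Sfn* (42.3), and the sums of desmosome genes (446), stress keratins (3.09), melanocyte genes (29.5) and epithelial transcription factors (73.7). 29°C replicate 2 stood apart for the sum of sebaceous gland genes (29.6 CPM).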

How the results depend on the processing

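No member was called under any alternative run (other filter, scaling, threshold, robust fit, replicate block, totals as covariate or higher totals only, DESeq2, limma, or without each mouse). Of 215 alternative values of single members, 199 kept their direction and 16 did not. Without 29°C replicate 4, log2 values turned to 0.28 (*Krt5*), 0.30 (*Krt14*), 0.44 (*Krt15*), 0.63 (*Krt1*), 1.72 (*Krt10*), 0.51 (*Dsg3*) and 0.40 (*Sfn*); without 29°C replicate 5, to 0.016 (*Krt15*) and 0.17 (*Dsg3*). The lowest values on leaving out a mouse were -2.78 (*Krt5*), -3.13 (*Krt14*), -1.11 (*Krt15*), -4.12 (*Krt17*) and -1.55 (*Sfn*) without 22°C replicate 5, -1.66 (*Krt1*) and -2.64 (*Krt10*) without 22°C replicate 6, and -0.89 (*Dsg3*) without 29°C replicate 1. Without both 22°C replicate 6 and 29°C replicate 4, *Krt5* was at 0.15 and *Sfn* at 0.48. *Krt10* was at 0.86 with the cluster of totals as a covariate and 0.85 in the higher totals only, where *Krt1* was at 1.71, and limma gave 0.0075 for *Sfn*. *Krt17* was at -5.74 with that covariate and -5.75 in the higher totals only, and DESeq2 gave -2.60 for *Krt10* and -5.66 for *Krt1*. With the replicate number as a block, *Sfn* was at 0.30, *Krt5* at -0.11 and *Krt14* at -0.70. The block ended the calls of *Cdsn* (edgeR P-adj = 0.126), *Lep* (0.121) and *Pkp2* (0.100184). The deviations of same-numbered mice correlated at 0.348 to 0.513 for 5 numbers and at 0.0508 for the other, so the numbers were not taken as pairs, although 6 of 12 libraries correlated best with their own number, a hint from the data and not the design.

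The median log2 ratio of basal to cornifying genes (3.35 at 22°C, 3.30 at 29°C) turned to -1.84 and -0.062 without *Trp63* and to -2.37 and -0.64 for *Krt14* over *Krt10*. Per kilobase without *Trp63* it was -1.49 and 0.17. Leaving out each mouse gave 2.94 to 3.44 at 22°C and 2.73 to 3.87 at 29°C. The r of *Krt14* with *Krt8* was -0.066 within the higher totals. DESeq2 gave no adjusted p for *Krt14* and *Krt10*. The causes were not tested. Other fits called from 4 (totals as a covariate) to 1676 (DESeq2) of all genes, against 345. For *Krt1*, *Krt15* and *Dsg3*, libraries at 0 counts limit any comparison to the 3 counts that a 0 allows.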
